A study of Drosophila melanogaster with 36 samples.

Results

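The proteasome subunit genes of Drosophila melanogaster were followed in whole adult female flies before and after heat. The members were the listed genes of the 20S core particle and of the 19S regulatory particle. A gene's values come from the probe set annotated to it alone, the one of highest mean where it had several. Genes entered by their annotation and not by a measured change, but the list was chosen with earlier results of these data known. Of 32 listed genes, 26 had such a probe set, among 6884 genes with a tested probe set. They comprised 6 of 7 alpha-ring genes, 6 of 7 beta-ring genes, 4 of 6 genes of the regulatory ATPases (Rpt) and 10 of 12 genes of the regulatory non-ATPase subunits (Rpn). Prosalpha1, Prosbeta1, Rpn9, Rpn10, Rpt1 and Rpt6 had none and were not analysed, apart from a probe set that Prosalpha1 shares with its paralog Prosalpha1R. All 26 probe sets passed the filter on dim values, and their lowest value in any array was 8.81 on the log2 scale.

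The study compared a nonselected line with a line selected for resistance to heat. Flies of each line were either untreated or had been held for 1 h at 36 °C and sampled 0.25, 1, 2, 4, 8, 16, 32 or 64 h later. With 2 biological replicates each, the 18 groups of 1 line and 1 time make 36 arrays. The labels give no age, no strain background, no number of selected populations and no number of flies pooled per sample. Untreated flies were taken once and not again at the later times, where heat, age and time of day therefore cannot be told apart.

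The proteasome is the protease that degrades proteins tagged with ubiquitin, and heat, which unfolds proteins, adds to its substrates. Its core is a barrel of alpha rings, which form the gate, and beta rings, in which Prosbeta1, Prosbeta2 and Prosbeta5 carry the caspase-like, trypsin-like and chymotrypsin-like active sites. The regulatory particle caps the barrel. Its Rpt ATPases unfold substrates and thread them into the core, Rpn10, Rpn13 and Rpn1 bind ubiquitin, Rpn11 removes the ubiquitin chain, and Rpn2 is a scaffold of its base. In yeast and mammals the subunit genes are controlled together, in animals through a transcription factor of the Nrf family, whose fly relative is cnc.

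Values are background-corrected array intensities, compared on the log2 scale. A probe set's level says nothing of its level relative to another probe set. The heat response at a time compares its 4 arrays (both lines) with the 4 untreated ones, heated minus untreated, in a linear model fitted with limma to all 8199 tested probe sets. A call is a Benjamini-Hochberg adjusted p under 0.05 over all of them. In whole flies, fewer cells that express a gene and less RNA per cell cannot be told apart.

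Beside these comparisons stand several facts of the arrays. The flies carried the transcripts of females, since the summed level of the yolk protein genes, made by fat body and ovary, was at least 14.8 in every array. Of 24 probe sets of male reproductive genes, 19 were highest in replicate 2 of the selected line at 32 h, where their summed level reached 11.8, against at most 9.52 in the arrays of all other times. Of 13 measured testis-type paralogs of the proteasome subunits, none reached log2 5 in that array or any other. In the array's control transcripts, the log2 ratio of 3' over 5' probe signal, a sign of how complete the labelled RNA is, ran from 1.64 to 2.28 in the 18 replicate 1 arrays and from 1.07 to 1.51 in the 18 replicate 2 arrays. The median over the 26 subunits of replicate 2 minus replicate 1 was positive in 17 of 18 groups. Over the 18 groups it had a median of 0.19, and the part of RNA quality in this was not tested. Values within each replicate number are therefore given beside the pooled ones. The heat treatment itself was clear in the arrays, with the heat-inducible Hsp70-type chaperone gene Hsp68 53.9-fold above untreated at 0.25 h (limma adjusted p = 1.33e-12).

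After heat the proteasome subunit transcripts stood, on average over lines and replicates, slightly above their untreated level, most so at 4 and 8 h, and near or below it from 16 h on. No single subunit passed the test at any time in the model used here, which has no term for the replicate number. The median change of the 26 subunits was 0.06 at 0.25 h, 0.12 at 1 h, 0.12 at 2 h, 0.26 at 4 h and 0.21 at 8 h on the log2 scale. The values at 4 and 8 h are 1.20-fold and 1.16-fold. The median was 0.01 at 16 h, -0.06 at 32 h and -0.06 at 64 h. Over all tested probe sets the median change lay between -0.02 and 0.04 at each of the 8 times. The change was positive for all 26 subunits at 1, 2 and 4 h and for 24 at 8 h, where 58.9, 57.0, 56.4 and 50.3% of all tested probe sets were positive. At 64 h it was positive for 5 of 26, but the direction there turned with the replicate number: 1 of 26 was positive in replicate 1 (median -0.15) and 15 of 26 in replicate 2 (median 0.02).

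At each of the 8 times 0 of 26 subunits had an adjusted p under 0.05 in limma, where 0.756, 1.27, 1.17, 0.354, 1.06, 2.39, 1.10 and 3.57% of all probe sets were called from 0.25 to 64 h. The unadjusted p was under 0.05 for 1 subunit at 2 h, 11 at 4 h, 6 at 8 h and 0 at the other times. The standard errors of the 26 subunits ran from 0.10 to 0.28 log2 units, so that a shift of the size of the median was within 3 standard errors for every gene. The smallest adjusted p at 8 h was that of Prosbeta7 (0.103, log2 change 0.40, SE 0.11), and at 4 h that of Rpt4 (0.658, log2 change 0.30, SE 0.11). With the replicate number as a block, 1 subunit was called at 2 h, 2 at 4 h and 3 at 8 h. There 2.20, 0.768 and 2.26% of all probe sets were called.

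**Figure D1:**
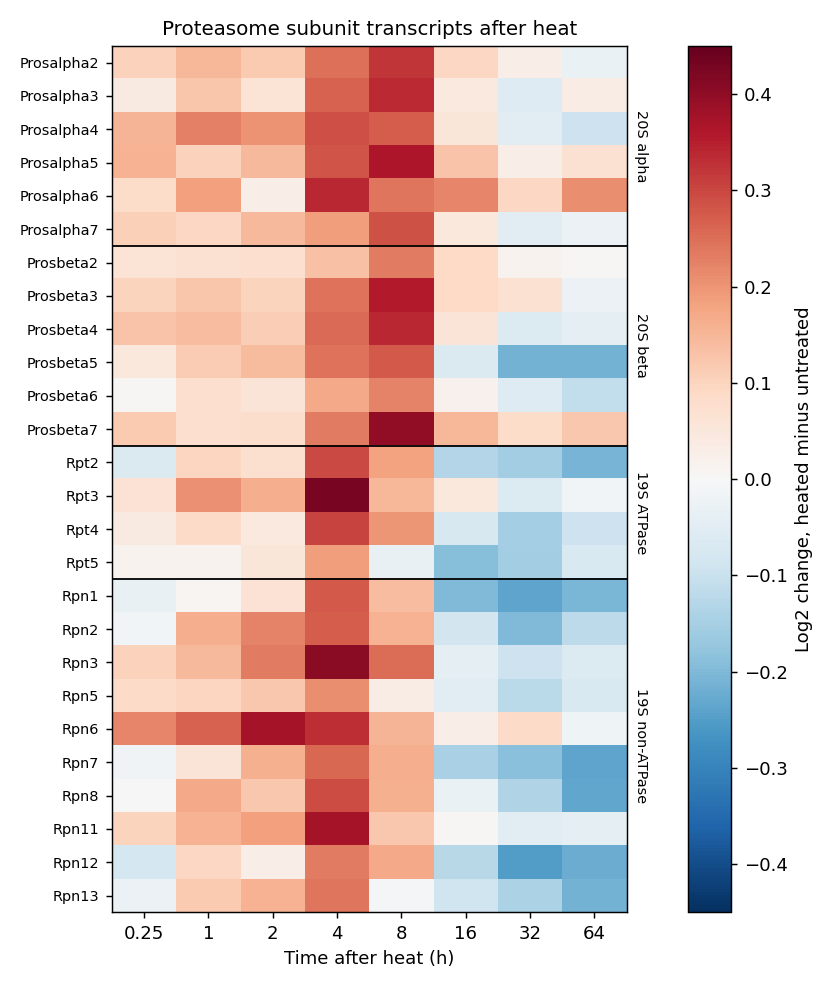
Log2 change of each of the 26 proteasome subunit transcripts at 8 times after heat, as the mean of 4 heated arrays minus the mean of 4 untreated arrays, with genes in rows by structural class and red for higher than untreated. The columns at 4 and 8 h are the reddest; at 4 h the changes ran from 0.13 (Prosbeta2) to 0.43 (Rpt3), and no cell passed the test.

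The course differed between the single series of arrays. In the untreated flies the median of the 26 subunits, relative to the untreated mean of each gene, lay between -0.11 and 0.13. At 4 h the 4 arrays lay between 0.14 and 0.37 and at 8 h between 0.22 and 0.30, above all 4 untreated arrays. At 0.25 h they spread from -0.15 to 0.35 and at 32 h from -0.22 to 0.27, and so overlapped the untreated arrays. In nonselected replicate 2 the median was 0.13 in untreated flies, 0.35 at 0.25 h, 0.37 at 4 h and 0.27 at 32 h. In selected replicate 1 it was -0.11 in untreated flies, -0.03 at 2 h and 0.21 at 4 h. By replicate number, the median change at 0.25 h was 0.00 in replicate 1 against 0.12 in replicate 2. At 1 h it was 0.04 against 0.21, and at 2 h 0.10 against 0.12. At 16 h it was -0.10 against 0.05, and at 32 h -0.10 against -0.07. At 16 h the direction therefore also turned with the replicate number. At 4 h the median change was 0.24 in replicate 1 and 0.30 in replicate 2, with 26 of 26 subunits positive in both. At 8 h it was 0.27 and 0.18, with 25 and 24 positive. By line, it was 0.20 in the nonselected and 0.31 in the selected line at 4 h, and 0.19 and 0.26 at 8 h.

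**Figure D2:**
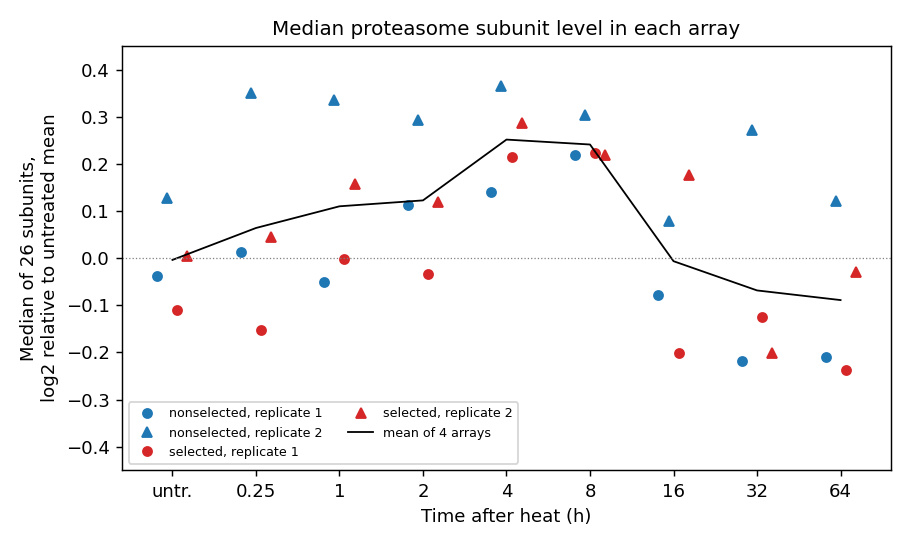
Median of the 26 subunits in each of the 36 arrays, in log2 units relative to the mean of the untreated arrays, against time after heat; colour gives the line, symbol the replicate number, and the line joins the means of 4 arrays. The 8 arrays of 4 and 8 h lie between 0.14 and 0.37. Triangles (replicate 2) lie above circles of the same line, except in the selected line at 8 and 32 h. There they read 0.218 against 0.223 and -0.20 against -0.12.

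All 4 arrays lay above all 4 untreated arrays for 0 of 26 subunits at 0.25 h, 2 at 1 h and 2 at 2 h, where 2.09, 4.05 and 3.85% of all probe sets did. At 4 h they did so for 10 subunits, against 2.67% of all probe sets, and at 8 h for 9, against 5.89%. The 10 subunits at 4 h were Prosbeta4, Prosbeta5, Prosbeta7, Rpn2, Rpn3, Rpn6, Rpn12, Rpt2, Rpt3 and Rpt4. The 9 at 8 h were Prosalpha2, Prosalpha3, Prosalpha4, Prosalpha5, Prosalpha7, Prosbeta4, Prosbeta5, Prosbeta7 and Rpt4. From 16 h on 1 subunit, Prosbeta7 at 16 h, remained above all untreated arrays, where 6.0, 3.92 and 5.46% of all probe sets did. No subunit had all 4 arrays below the untreated ones at any time, where 2.32, 2.83, 2.16, 1.40, 3.04, 3.77, 1.48 and 4.94% of all probe sets did, from 0.25 to 64 h.

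Among the alpha-ring genes, the change at 4 h ran from 0.19 (Prosalpha7) to 0.34 (Prosalpha6), and at 8 h from 0.24 (Prosalpha6) to 0.36 (Prosalpha5). The log2 intensity of Prosalpha5 was 11.62 and 11.43 in the untreated nonselected replicates 1 and 2 and 11.66 and 11.34 in the selected ones. At 4 h it was 11.61 and 11.78 in the nonselected and 11.90 and 11.88 in the selected line. At 8 h it was 11.93 and 11.83, then 11.93 and 11.81, so that all 4 arrays were above every untreated one. The change of Prosalpha5 at 8 h was 1.29-fold (log2 0.36, SE 0.11, limma adjusted p = 0.165). Prosalpha4 was higher in replicate 2 than in replicate 1 in both lines, untreated and at 4 and 8 h, and its arrays are given by replicate number. In replicate 1 it stood at 9.55 (nonselected) and 9.60 (selected) in untreated flies, at 9.78 and 9.90 at 4 h, and at 9.91 and 9.93 at 8 h. In replicate 2 it stood at 9.87 and 9.80 in untreated flies, at 10.20 and 10.09 at 4 h, and at 10.02 and 10.05 at 8 h. Within each replicate number both heated values exceeded both untreated values at both times. Prosalpha6 varied most from array to array, with a standard error of 0.28 on each change.

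Among the beta-ring genes, the chymotrypsin-like subunit Prosbeta5 had the smallest p over the whole series. Its untreated log2 intensity was 11.37 and 11.39 in nonselected replicates 1 and 2 and 11.31 and 11.34 in the selected ones, a spread of under 0.1. At 4 h the arrays read 11.54 and 11.62 (nonselected), then 11.60 and 11.63 (selected), and at 8 h 11.59, 11.62, 11.72 and 11.58 in the same order. All 8 arrays lay above the 4 untreated ones, by 1.18-fold at 4 h and 1.21-fold at 8 h in the mean. At 64 h the arrays read 11.13, 11.35, 10.94 and 11.14, and 3 of the 4 were below every untreated array. Prosbeta4, a structural subunit of the same ring, was 11.62 and 11.64 in the untreated nonselected line and 11.58 and 11.45 in the untreated selected line. At 8 h it was 12.11 and 11.91 in the nonselected and 11.92 and 11.72 in the selected line, again without overlap (1.26-fold, SE 0.11 in log2, limma adjusted p = 0.178). The trypsin-like subunit Prosbeta2 had the smallest change of the 26 at 4 h, 0.13, and stood at 0.23 at 8 h. Prosbeta7 had the highest change at 8 h, 1.32-fold, with arrays from 11.58 to 11.77 against 11.26 to 11.30 in untreated flies.

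**Figure D3:**
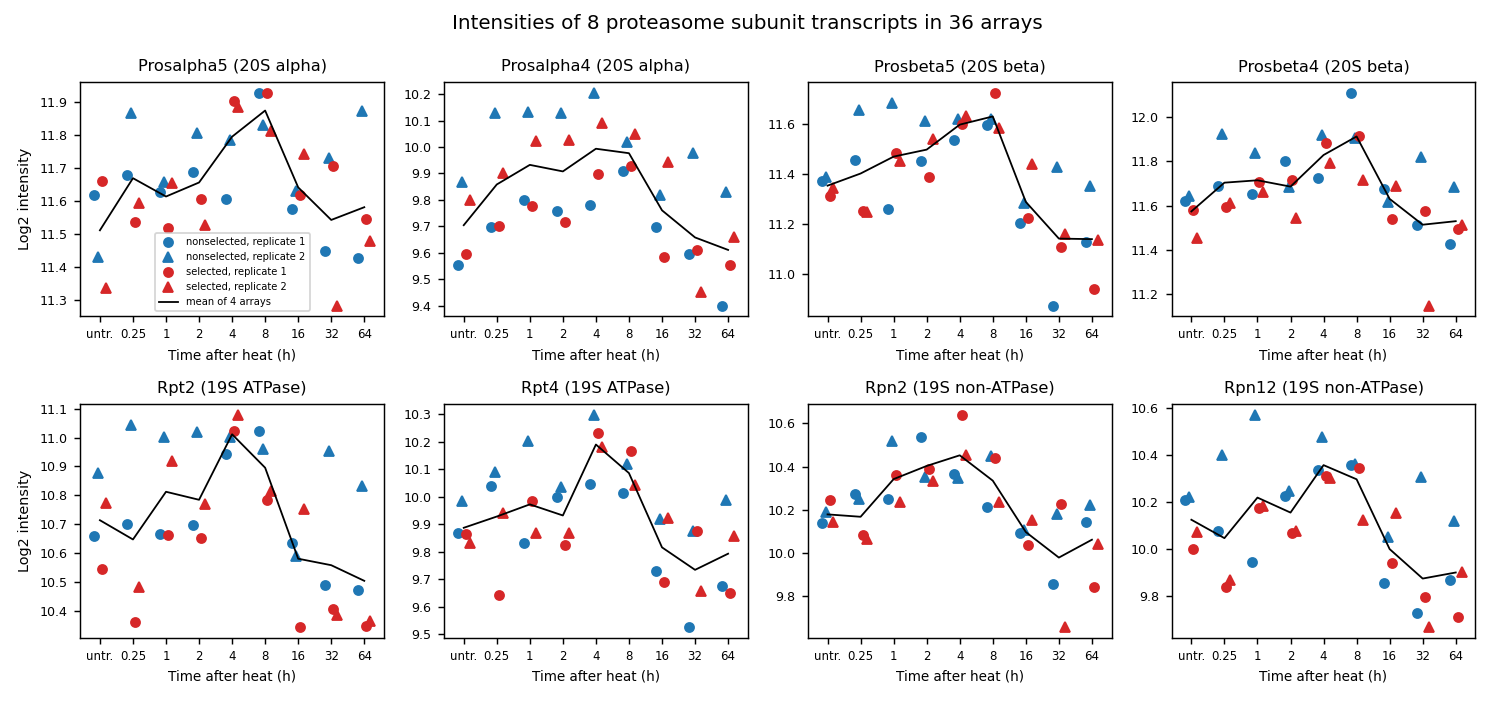
Log2 intensity of 8 proteasome subunit transcripts, the pair with the smallest p over the time series in each structural class, in each of the 36 arrays against time after heat; colour gives the line, symbol the replicate number, and the black line joins the means of 4 arrays. Each vertical axis has its own range; the 4 arrays of Prosbeta5 lie between 11.31 and 11.39 in untreated flies and between 11.54 and 11.63 at 4 h.

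Among the regulatory ATPases, Rpt2 was 10.66 and 10.88 in the untreated nonselected replicates 1 and 2 and 10.55 and 10.77 in the selected ones. At 4 h the 4 arrays lay between 10.94 (nonselected replicate 1) and 11.08 (selected replicate 2), above all untreated arrays (1.23-fold, SE 0.13 in log2, limma adjusted p = 0.901). At 8 h it was 11.02 and 10.96 in the nonselected line. In the selected line it was 10.78 and 10.81, within the range of the untreated arrays of both lines but above both untreated selected arrays. Rpt4 stood at 9.87 and 9.98 (nonselected) and 9.87 and 9.83 (selected) in untreated flies and at 10.05, 10.30, 10.23 and 10.18 at 4 h. Rpt3 had the highest change of all subunits at 4 h, 1.34-fold (log2 0.43, SE 0.16, limma adjusted p = 0.751). Its arrays ran from 9.43 to 9.71 there and from 8.87 to 9.24 in untreated flies. At 8 h Rpt3 had come down to a change of 0.15 and Rpt5 to -0.03.

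Among the regulatory non-ATPase subunits, the scaffold Rpn2 was 10.14 and 10.19 in the untreated nonselected replicates and 10.25 and 10.14 in the selected ones. At 2 h it read 10.54 and 10.35, then 10.39 and 10.33, and at 4 h 10.37, 10.35, 10.64 and 10.45, without overlap at either time. At 8 h 1 nonselected array (10.21) and 1 selected array (10.24) lay within the range of the untreated arrays of both lines. Rpn12, a lid subunit, was 10.21, 10.22, 9.997 and 10.07 in untreated flies and 10.34, 10.48, 10.31 and 10.30 at 4 h, in the order nonselected replicates 1 and 2, selected replicates 1 and 2. Rpn6, a lid subunit that joins core and cap, was the earliest, and the sole subunit with its highest mean at 2 h. Its arrays there ran from 11.15 to 11.47, against 10.84 to 11.06 in untreated flies (1.30-fold, SE 0.14 in log2, limma adjusted p = 0.430). The deubiquitinase Rpn11 was 1.30-fold above untreated at 4 h with a large standard error of 0.22, and 1.09-fold at 8 h.

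The core and the cap stood highest at different times in the means over 4 arrays, though not in replicate 2 taken alone, and no gene's difference between these times passed the test. The mean was highest at 8 h for 10 of 12 genes of the 20S core, and at 4 h for 13 of 14 genes of the 19S cap. The exceptions were Prosalpha4 and Prosalpha6, highest at 4 h, and Rpn6. Over all tested probe sets 7.31% were highest at 4 h and 8.71% at 8 h. From 4 to 8 h the 12 core genes moved by a median of 0.08 log2 units (from -0.10 for Prosalpha6 to 0.16 for Prosbeta7). The 14 cap genes moved by a median of -0.15 (from -0.27 for Rpt3 to -0.06 for Rpn12), and all 14 were negative, where 43.8% of all tested probe sets were positive. No single gene passed: 0 of 26 subunits were called between 8 and 4 h in limma, 0 had an unadjusted p under 0.05, and 0.293% of all probe sets were called. This contrast was added after the difference had been seen.

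The difference between the medians of core and cap, each relative to untreated, can be taken within an array. It ran from -0.13 to 0.01 in the 4 arrays of 4 h and from 0.09 to 0.23 in the 4 arrays of 8 h, with no overlap. In the untreated arrays it ran from -0.03 to 0.05, in those of 16 h from 0.08 to 0.21, and in those of 64 h from 0.04 to 0.29. Within replicate 1 alone, 11 of 12 core genes and 1 of 14 cap genes were higher at 8 than at 4 h. Within replicate 2 alone, 3 of 12 core genes and 0 of 14 cap genes were, and 8 of 12 core genes were highest at 4 h, as were 12 of 14 cap genes. The cap genes were lower at 8 than at 4 h in both, with medians of -0.16 in both, while the median of the core genes was 0.17 in replicate 1 and -0.03 in replicate 2. By line, 10 of 12 core genes were higher at 8 h in the nonselected and 8 of 12 in the selected line, against 1 and 0 of 14 cap genes.

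**Figure D4:**
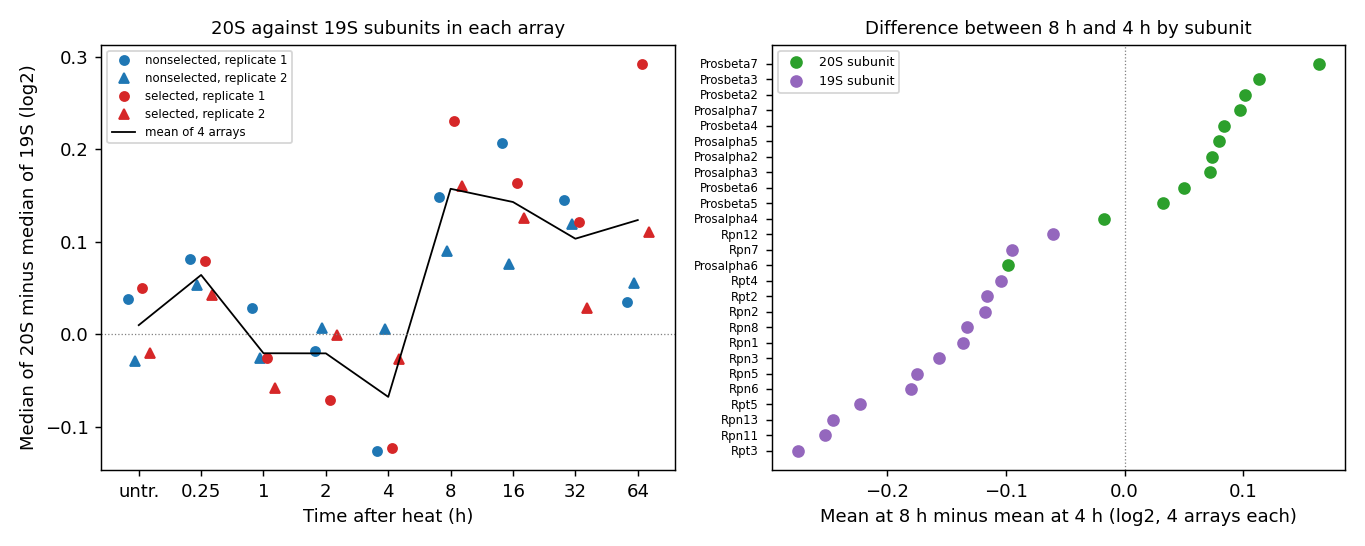
Left, the median of the 12 core (20S) genes minus the median of the 14 cap (19S) genes within each array, both in log2 units relative to untreated, against time after heat. Right, the mean at 8 h minus the mean at 4 h of each subunit, 4 arrays each; 10 of 12 core genes lie right of 0 and all 14 cap genes left of it.

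Over the series as a whole, the moderated F-test over the 8 times called 2 of 26 subunits, Prosbeta5 (limma adjusted p = 0.0132) and Rpn2 (limma adjusted p = 0.0271), where it called 13.2% of all probe sets. This count depended on the model. With the replicate number as a block, 18 of 26 were called, where 25.2% of all probe sets were, though the labels do not say what a number shares. The range between the highest and the lowest of the 9 time means was 0.23 to 0.53 log2 units for the 26 subunits, with a median of 0.40 against 0.37 over all tested probe sets, and 29.0% of all tested probe sets had a wider range than any subunit. In replicate 1 alone 8 subunits were called, among 22.3% of all probe sets, and in replicate 2 alone 0, among 6.89%. The call of Prosbeta5 held whichever array was left out. That of Rpn2 was lost without replicate 1 of the nonselected line at 2, 4 or 32 h, or of the selected line at 4 or 64 h, with adjusted p up to 0.0627. The count was 1 without any of these 5 arrays, 5 without nonselected replicate 1 at 1 h or replicate 2 at 32 h, and 4 without selected replicate 1 at 32 h.

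Late recovery was compared with early recovery as the 12 arrays of 16, 32 and 64 h against the 12 of 0.25, 1 and 2 h, which uses no untreated array. Here 9 of 26 subunits fell and 0 rose. The share of subunits called was 34.6%, near the 35.3% of all probe sets called in either direction. Called as lower were 34.6% of the subunits and 17.1% of all probe sets. Called as higher were 18.2% of all probe sets. The 9 were Prosalpha4, Prosbeta5, Rpt2, Rpn1, Rpn2, Rpn6, Rpn7, Rpn12 and Rpn13, and 6 of them were among the 10 non-ATPase subunits of the cap. The median difference of the 26 subunits was -0.17 against -0.03 over all tested probe sets. It was negative for 24 of 26, where 45.4% of all tested probe sets were positive. The exceptions were Prosalpha6 (0.08) and Prosbeta7 (0.03). With the replicate number as a block, 17 of 26 were called, where 48.6% of all probe sets were.

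Prosbeta5 ran from 11.25 to 11.68 (median 11.45) early and from 10.87 to 11.44 (median 11.18) late. It fell by 0.27 on the log2 scale, a 1.20-fold difference (SE 0.06, limma adjusted p = 0.00297), with overlapping groups. Rpn2 ran from 10.06 to 10.54 (median 10.30) early and from 9.65 to 10.22 (median 10.10) late. It fell by 0.26 (SE 0.06, limma adjusted p = 0.00386). The ubiquitin receptors Rpn1 and Rpn13 both fell by 0.23, with adjusted p of 0.0310 and 0.0223. The other 5 calls had differences between -0.26 (Rpn7) and -0.20 (Rpt2). The calls of Prosbeta5 and Rpn2 held whichever of the 24 arrays was left out, and the other 7 were each lost without at least 1 array.

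The count of 9 depended on single arrays. It was 14 without nonselected replicate 2 at 32 h, whose subunit median of 0.27 stood above the other 3 arrays of that time. It was 5 without selected replicate 2 at 32 h, the array with the male transcripts, and 5 without nonselected replicate 1 at 64 h. It was 4 without nonselected replicate 1 at 16 h, replicate 2 at 0.25 h or replicate 2 at 1 h, 3 without selected replicate 1 at 64 h, and 2 without nonselected replicate 1 at 32 h or selected replicate 1 at 16 h. Within replicate numbers the median difference was -0.18 in replicate 1, with 14 subunits called among 49.8% of all probe sets, and -0.15 in replicate 2, with 3 called among 16.5%. Eggshell transcripts of the ovary were also lower in late recovery, with 9 of 13 eggshell genes called as lower and a median difference of -3.86. Their summed level had a median of 16.6 in untreated arrays, 16.1 at 0.25 h, 16.4 at 1 h and 16.4 at 2 h. It was 16.0 at 4 h, 15.2 at 8 h, 14.9 at 16 h, 15.6 at 32 h and 13.9 at 64 h. The summed level of 18 germline genes stayed between 14.2 and 14.9 in all arrays. In late against early recovery 7 of the 18 were called, 6 lower and 1 higher, where 35.3% of all probe sets were called. Their median difference was -0.15. The part of ovary composition in the subunits' difference was not tested.

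Between the lines, all 26 subunits were lower in the selected line when averaged over the 9 conditions, 18 arrays against 18. The median was -0.11, against -0.05 over all tested probe sets, of which 36.8% were higher in the selected line. The difference passed for 1 of 26, where 12.2% of all probe sets were called, 6.06% as lower and 6.13% as higher. That subunit was Prosbeta3, a structural subunit of the beta ring. It ran from 10.62 to 11.15 (median 10.84) in the selected and from 10.62 to 11.33 (median 11.02) in the nonselected line, and was lower by a log2 difference of -0.19 (1.14-fold, SE 0.05, limma adjusted p = 0.0151). Its call held whichever of the 36 arrays was left out. Transcripts of the ovary and fat body differed between the lines as well: all 3 yolk protein genes were called as lower in the selected line (median -0.44), as were 4 of 18 germline genes, with 1 called higher, and all 13 eggshell genes were lower, with a median of -0.85 and 0 called. Their part in the subunits' difference was not tested. The line difference was uneven between the replicate numbers. In replicate 1 the median was -0.03, with 0 subunits called among 7.10% of all probe sets and Prosbeta3 at an adjusted p of 0.224. In replicate 2 it was -0.18, with 11 called among 36.3%. The count was 2 to 4 without 1 of 7 arrays: 4 without nonselected replicate 1 at 1 h, 3 without nonselected replicate 1 at 32 h, and 2 without nonselected replicate 1 at 0.25, 2 or 64 h, selected replicate 1 at 32 h or selected replicate 2 at 16 h. With the replicate number as a block, 12 of 26 were called, where 28.6% of all probe sets were.

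In untreated flies alone, 2 arrays against 2, limma called 0 of 26 subunits and 0% of all probe sets, and 0 subunits had an unadjusted p under 0.05. The line by time F-test called 0 of 26 subunits and 0% of all probe sets, with a smallest unadjusted p among the subunits of 0.499 (Prosbeta3). At 4 h the difference between the heat responses of the lines, selected minus nonselected, ran from -0.10 to 0.27 over the subunits with a median of 0.13. Its standard errors were 0.21 to 0.56, so that differences as large as the response itself were not detectable.

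**Figure D5:**
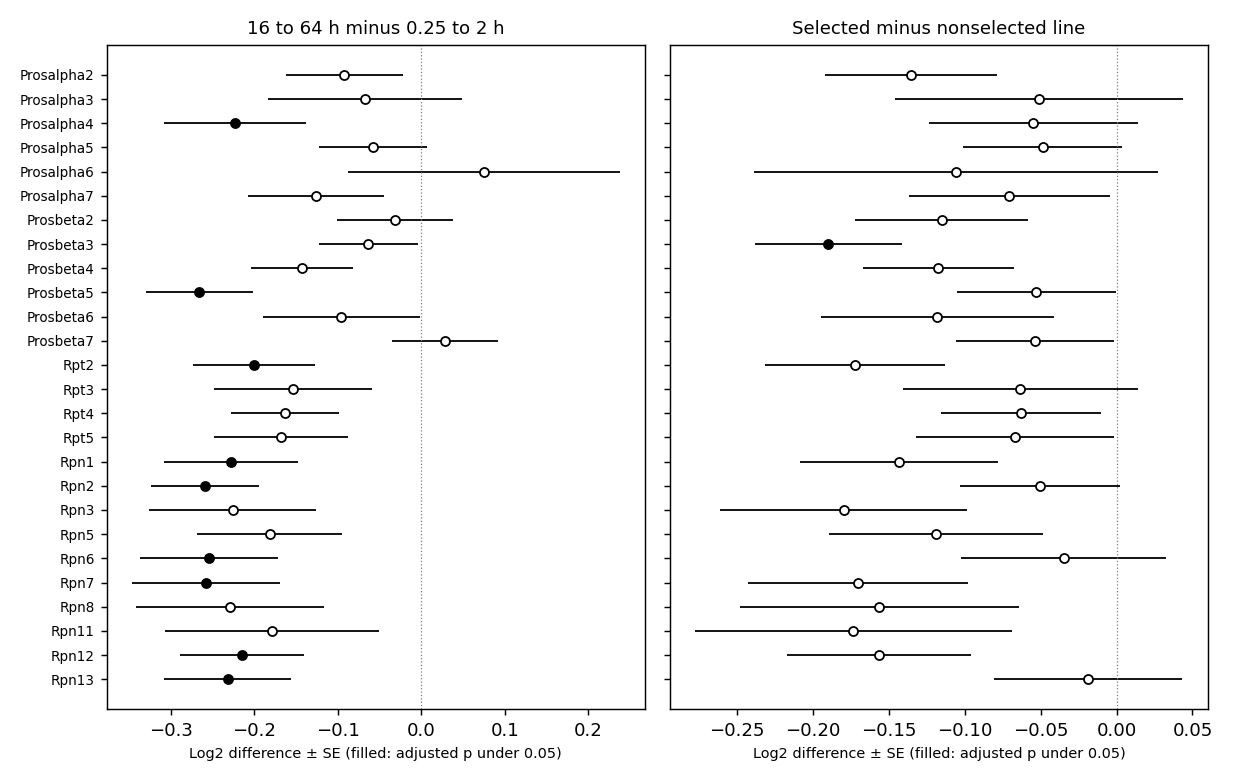
Left, the log2 difference between late (16 to 64 h) and early (0.25 to 2 h) recovery of each subunit, 12 arrays against 12; right, the log2 difference between the selected and the nonselected line, 18 arrays against 18. Points are estimates with standard errors and filled points have an adjusted p under 0.05: 9 subunits on the left, all lower late, and Prosbeta3 alone on the right.

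The subunits tracked one another over the groups. Over the 18 group means, Pearson's r was positive for all 325 pairs of subunits, from 0.09 to 0.96 with a median of 0.78. These points share the same arrays, so these values are a description. The share of positive pairs among all genes was not computed. Rpn3 was closest to the mean of the other subunits (r = 0.96), and Prosalpha6 (0.51), Prosbeta7 (0.61) and Rpn6 (0.64) were farthest. Outside the subunits, an r of 0.51 with the subunit mean (Pomp) ranked 1855 of 7285 and an r of 0.85 (TER94) ranked 15. Values near that of Prosalpha6 were therefore common. The 10 genes outside the subunits with the profile most like the subunit mean were Sem1 (r = 0.92), Gmer (0.91), PSMG1 (0.90), EMC6 (0.90), CG12171 (0.89), yip2 (0.88), htk (0.88), Usp14 (0.87), Txl (0.87) and Arc2 (0.87), out of 7285 ranked. In yeast and mammals, Sem1 is a small subunit of the lid, PSMG1 is a chaperone of core assembly and Usp14 is a deubiquitinase bound to the cap. The changes of Sem1, PSMG1 and Usp14 at 4 h were 0.30, 0.45 and 0.27 on the log2 scale, none past the test. Over all 10 genes the changes at 4 h ran from 0.13 (Gmer) to 0.45 (PSMG1). The 10 were picked for their likeness to the subunits, so positive changes at 4 h are no independent result.

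Of 12 listed assembly factors, regulators and associated factors, 10 were measured. The largest change was in ntc, the F-box protein that acts with the proteasome regulator PI31 in fly spermatids. It rose early, from a mean of 6.90 ± 0.11 (SD, n = 4) in untreated flies to 7.57 ± 0.10 (SD, n = 4) at 1 h (1.59-fold, limma adjusted p = 0.00103) and 7.55 ± 0.18 (SD, n = 4) at 2 h (1.57-fold, limma adjusted p = 0.00155). By 8 h it was at 6.93. No other of the 10 was called at any time. At 4 h all 10 were positive with a median of 0.22. Pomp, the chaperone that matures the core, was 1.23-fold above untreated at 4 h and 1.24-fold at 8 h (limma adjusted p = 0.555 at 8 h). Between late and early recovery 4 of 10 were called, near the 35.3% of all probe sets: Sem1, ntc and CG9588 fell, while REG, an activator of the core that works without ubiquitin, rose by 0.24 (limma adjusted p = 0.00490) and ran opposite to the subunits (r = -0.69).

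Of 18 listed genes of ubiquitin, its enzymes and the p97 segregase, 13 were tested and 0 were called at any time. At 4 h their median was 0.07, and 8 of 13 were positive. The mean of the ubiquitin gene Ubi-p63E was 13.20 in untreated flies and 13.37, 13.38 and 13.36 at 0.25, 1 and 2 h. For the ubiquitin gene Ubi-p5E it was 14.12, then 14.14, 14.16 and 14.12. The changes of Ubi-p63E and Ubi-p5E were -0.07 and -0.07 at 4 h and -0.17 and -0.17 at 8 h, none past the test. In late against early recovery 3 of 13 were called, Ubi-p63E, Ubi-p5E and TER94, which fell, and between the lines 1 of 13, the ligase sip3, which was lower in the selected line. Both counts are below the share of all probe sets called, 35.3 and 12.2%. The fly p97, TER94, which extracts ubiquitinated proteins, had a profile close to that of the subunits (r = 0.85, rank 15 of 7285).

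Of 5 listed regulators (cnc, maf-S, Hsf, Keap1 and Ddi1, the last being the gene rngo of the list of associated factors), Keap1, the partner that restrains cnc, rose 1.99-fold at 1 h (limma adjusted p = 0.0346) and was at 1.22-fold at 4 h, not past the test. Keap1 was dim, with an untreated mean of 5.45, near the filter at log2 5. No other regulator was called at a single time. The level of cnc, taken from 1 of its 4 probe sets, the one of highest mean, ran opposite to the subunits (r = -0.76). Its changes were -0.22 at 4 h and -0.27 at 8 h (limma adjusted p = 0.456 at 8 h), and the other probe sets of cnc are not given here. In the F-test 1 of the 5, the heat shock factor Hsf, was called, where 13.2% of all probe sets were. In late against early recovery 2 of the 5, Hsf and Keap1, were called as lower, where 35.3% of all probe sets were called. The 5 heat shock genes checked, Hsp68, stv, DnaJ-1, Hsp27 and Hsp26, all rose at 0.25, 1 and 2 h. At 4 and 8 h 2 of the 5, Hsp68 and stv, were still called, with the median change of the 5 at 0.77 and 0.38.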

How the data were processed

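Total RNA of whole adult females was hybridised to 36 1-colour arrays. The deposited values are linear intensities that the authors made with GCRMA, a method that corrects background by probe sequence, per the submitters' processing notes; its version and the genome build are not given in the sources used here. They were turned to log2 with no pseudocount. GEO's platform annotation gave 12443 of 13966 non-control probe sets 1 symbol, 327 several and 1196 none. Symbols were updated through Entrez identifiers in RefSeq (Release 6 plus ISO1 MT), matching 12394. Probe sets entered the tests if their 4 highest arrays averaged at least 5 in log2, which 8199 did. One limma 3.58.1 model (R 4.3.3, 18 group means, 18 residual degrees of freedom), tested on simulated data, gave all contrasts. P-values measure the spread between samples that the labels call biological replicates. Precision is limited by the number of arrays.

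The members, gene lists and tests were chosen with earlier results of these data known. Values per array are given for the 2 members of each class with the smallest p of the F-test; Prosbeta7, Prosbeta3, Rpt3 and Rpn6 were added after their values had been seen. Genes of similar profile are the 10 of highest Pearson correlation over the 18 group means. Alternatives were the replicate block, filters on dim probe sets, a pseudocount of 16, quantile normalization, trend and robust options, averaging of a gene's probe sets, fits of 8 arrays, each line, each replicate number and each array left out. A motif search was not run. Ubqln, Fub1, Uba1, eff, Ubc4 and Ubc10 had no single-gene probe set.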

Additional observations from a re-analysis of the deposited data

Results flagged for a closer look

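Over the 4 arrays of a time, 81 sets of values (the median of the subunits and the 8 subunits given by array) were searched for an array far from the other 3 by Dixon's ratio, and 2 were found; chance gives about 1 in 20. The median of the 26 subunits at 8 h was 0.303 in nonselected replicate 2, the highest, against 0.218 to 0.223 in the other 3 arrays. Rpn12 at 8 h was 10.12 in selected replicate 2, the lowest, against 10.34 to 10.36 in the other 3.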

How the results depend on the processing

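No called result changed direction under any alternative run. Of the medians over the subunits, that at 4 h lay between 0.20 and 0.31 under the 12 alternatives that keep all arrays or take 1 line or replicate number, and that at 8 h between 0.18 and 0.27. Leaving out each array in turn gave -0.01 to 0.16 at 0.25 h, 0.01 to 0.23 at 1 h, 0.07 to 0.17 at 2 h, 0.20 to 0.31 at 4 h, 0.17 to 0.28 at 8 h, -0.11 to 0.11 at 16 h, -0.21 to 0.04 at 32 h and -0.16 to 0.03 at 64 h, so the direction at 0.25 h and from 16 h on rests on single arrays. It gave -0.22 to -0.13 for late against early recovery, -0.14 to -0.07 between lines and -0.17 to -0.02 between untreated lines. The count of called subunits stayed 0 at every single time, between 8 and 4 h, between untreated lines and in the interaction, was 1 to 5 in the F-test, 2 to 14 for late against early recovery and 1 to 4 between lines. The count of core genes higher at 8 than at 4 h was 8 to 12 and that of cap genes 0. Taking 1 replicate number moved the F-test to 8 and 0 called subunits, late against early recovery to 14 and 3, the line difference to 0 and 11, the 8 h median to 0.27 in replicate 1, and the core genes higher at 8 h to 3 in replicate 2; the cap genes were 1 in replicate 1 and 1 in the nonselected line. In the selected line alone the 8 h median was 0.26. The alternatives on 8 against 4 h were chosen after seeing the data.

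The labels number the replicates alike in each group without saying what a number shares. Deviations of same-numbered arrays correlated between groups with r from -0.43 to 0.78 (median 0.33), over 0.1 in 121 of 153 pairs of groups but not in all, so the pairing is not established by this check, although the 3' to 5' control ratio separates the numbers. With the replicate number as a block, 1 subunit was called at 2 h (2.20% of all probe sets), 2 at 4 h (0.768%), 3 at 8 h (2.26%), 17 for late against early recovery (48.6%), 12 between lines (28.6%) and 18 in the F-test (25.2%).

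The filter changed 1 call of a subunit named here: without it, Prosalpha4 in late against early recovery had an adjusted p of 0.0602. Prosalpha1, in the probe set it shares, stood at 0.26 at 4 h and 0.35 at 8 h. A second probe set of Prosbeta6, dim with a mean of 4.66, gave 0.57 at 8 h (limma adjusted p = 0.138), against 0.22 in the probe set used. The second probe set of Prosalpha7 was too dim to test.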
